A study of Arabidopsis thaliana with 4 samples.

Results

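The genes described here encode the antenna and the subunits of the 2 photosystems of Arabidopsis thaliana, with proteins related to them. They were taken as the nuclear loci whose description in the array files names a chlorophyll A-B binding protein or a photosystem, and 59 of the 25660 nuclear loci on the array met this rule. A hand-written list of roles divided them into 21 antenna genes, 21 photosystem subunit genes, 4 light-harvesting-like genes, 4 assembly or repair genes, 2 PSBP-like genes and 7 other matches of the description. All 59 carried a detectable signal in at least 1 tissue and were tested, 57 gave signals well above background on each of the 4 arrays, and none was saturated.

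Expression was compared between shoot apical meristem and young leaves. Both tissues came from clv3-9 mutant plants, which lack a functional CLAVATA3 signal and form an enlarged meristem, so that meristems could be cut out by hand. The plants were 9 weeks old and had been grown in 8 h of light and 16 h of darkness. Each tissue was represented by 2 biological replicates, each hybridised to 1 one-colour array. The meristem sample was enriched by dissection and not purified, and a wild-type sample was not analysed here.

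Photosynthesis begins when chlorophyll bound to antenna proteins absorbs light and passes the energy to a reaction centre. The LHCB proteins form the antenna of photosystem II (LHCII) and the LHCA proteins that of photosystem I (LHCI), and all belong to one family of membrane proteins. Photosystem II splits water and photosystem I reduces ferredoxin, with plastoquinone, the cytochrome complex and plastocyanin carrying electrons between them. The reaction centre proteins that hold the pigments of charge separation are encoded in the chloroplast genome, so the nuclear subunits described here surround and stabilise those cores. In plants, proplastids of the meristem become green chloroplasts as leaf cells differentiate.

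Signals are given as log2 of the scaled intensity of a probe, and a difference is the meristem mean minus the leaf mean on this scale, so that 1 unit is a doubling. Probes differ in how strongly they bind, so that genes are compared with each other by their differences and not by their levels. The arrays had between 60.1% and 63.3% of probes well above background, and all 4 lay on 1 slide and in 1 scan. Over the 23254 loci tested, the median difference was 0.10 and the pooled SD between replicates was 0.31. The 6 meristem markers chosen as a check (KNAT1, KNAT2, KNAT6, STM, CLV3 and WUS) were all higher in the meristem, with a median difference of 5.59, and WUS was not well above background in the leaf. The 6 leaf markers (CA1, RCA and 4 genes of the Rubisco small subunit) were all lower in the meristem, with a median difference of -5.10. Leaf markers were nevertheless present in the meristem sample, where 5 of the 6 were well above background on both arrays. Their summed signal was 16.70 and 16.25 on the log2 scale in the meristem and 19.63 and 19.45 in the leaf. RBCS1A, the brightest of the 6 in both tissues, weighed most in these sums. It read 16.29 and 15.84 in the meristem and 18.42 and 18.16 in the leaf. Its difference of -2.22 was the smallest of the 6.

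Nearly the whole set was lower in the meristem. By limma with Benjamini-Hochberg adjustment over all loci, 57 of the 59 genes were lower in the meristem at an adjusted p of at most 0.05, which 21.6% of all loci were. ELIP2, an early light-induced protein, was the only gene higher in the meristem, where 27.1% of all loci passed the test in that direction, and AT4G37230, annotated as a putative oxygen-evolving enhancer protein, did not pass. At least 4-fold lower in the meristem were 46 genes, against 6.42% of all loci. This number was 35 under quantile normalization, 37 with spike-in scaling and between 42 and 48 under the other scalings and normexp background correction. ELIP2 was also called at least 4-fold higher, as were 6.55% of all loci, with its fitted difference used for the size. Only a bound of 3.23-fold could be given for it, and its call was lost with normexp and with the methods' t-test. The median difference over the 59 genes was -3.01, or 8.04-fold, and single genes ranged from -7.41 to 3.04. In all 59 genes the signals of the 2 tissues did not overlap, 58 of them with both meristem arrays below both leaf arrays, which was the case in 35.5% of all loci. For 1 gene with 2 arrays in each tissue, the smallest two-sided p of an exact permutation test is 0.333, and the adjusted p-values therefore come from the fit across all loci.

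The same difference was visible in the share of the whole array signal that the 59 genes took. They made up 2.17% and 1.93% of the summed signal of all gene probes in the meristem and 12.2% and 11.0% in the leaf. Antenna genes alone took 1.24% and 1.08% in the meristem against 6.59% and 5.84% in the leaf. The photosystem subunit genes took 0.839% and 0.757% against 5.17% and 4.70%. In tissue samples of this kind, fewer cells with green chloroplasts and less of the RNA per cell cannot be told apart.

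Antenna and subunit genes were both lower in the meristem, and the antenna genes were spread over a wider range. All 21 antenna genes were lower in the meristem, 17 of them at least 4-fold, with a median difference of -2.97 (7.84-fold), although LHCB1.5 lost its difference (0.05, adjusted p = 0.808) under quantile normalization. That setting left 10 antenna genes at least 4-fold lower and a median of -1.91, and with normexp 17 of the 21 passed the test, without LHCB2.1, LHCB2.2, LHCB7 and LHCB4.3. All 21 photosystem subunit genes were also lower, 20 of them at least 4-fold, with a median of -3.24 (9.42-fold), and 16 reached 4-fold under quantile normalization, with a median of -2.62. The middle 50% of antenna genes lay between -4.14 and -2.45 and that of subunit genes between -3.67 and -3.01. The full range was -7.41 to -0.87 for the antenna and -4.24 to -1.57 for the subunits. The difference between the medians of the 2 classes was not tested. The 17 genes of neither class had a median of -2.33, with 15 of them lower in the meristem.

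**Figure D1:**
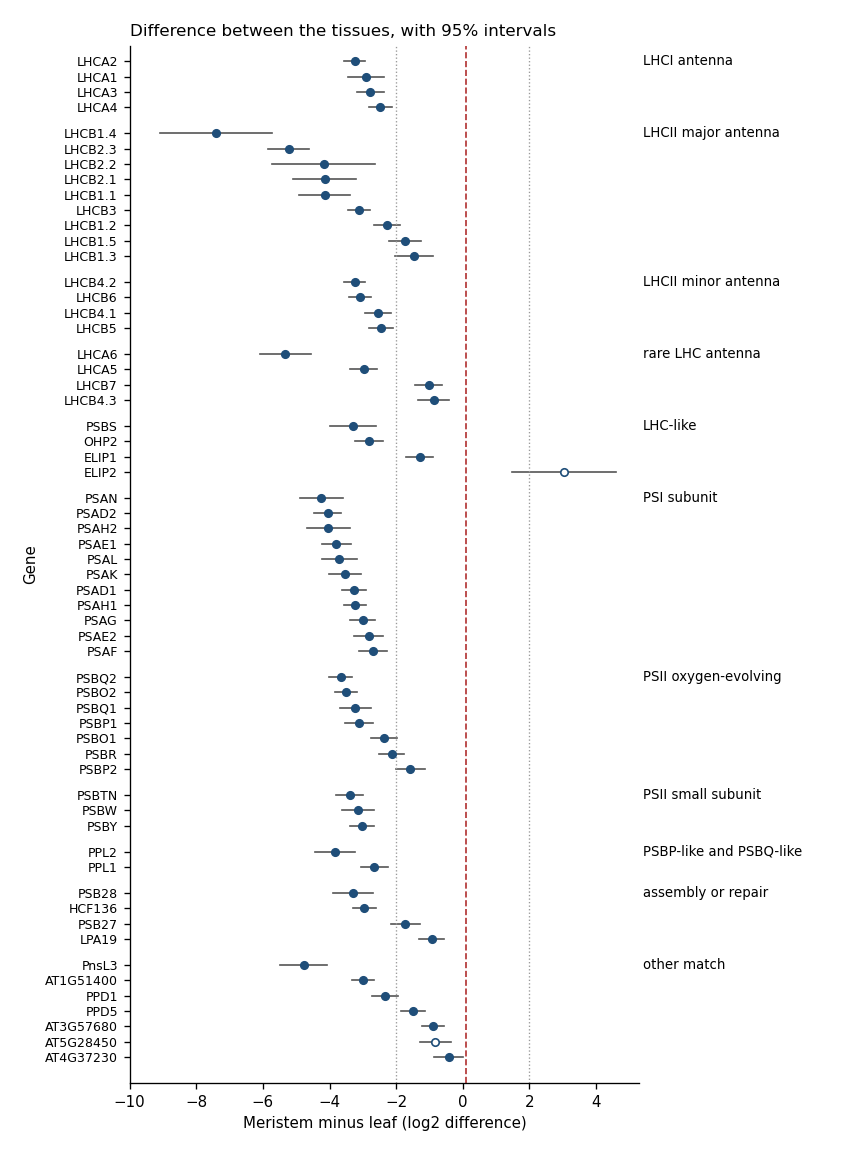
Difference between meristem and leaf (log2, meristem minus leaf) for each of the 59 genes, grouped by class, with bars for 95% intervals, open points for genes not well above background on all 4 arrays, a dashed line at the median of all loci (0.10) and dotted lines at 4-fold. Antenna genes spread from -7.41 to -0.87 and photosystem subunit genes from -4.24 to -1.57, and ELIP2 alone lies well above 0; LHCB1.5 moves to 0.05 under quantile normalization.

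The major LHCII genes, whose LHCB1, LHCB2 and LHCB3 products form the trimers that make up most of the antenna of photosystem II, ranged from -7.41 for LHCB1.4, the largest difference of the 59 genes, to -1.47 for LHCB1.3. All 9 were lower in the meristem, with a median of -4.14 (17.7-fold), except that LHCB1.5 was at 0.05 under quantile normalization. The median was -3.12 under that setting and -2.62 with normexp background correction. With normexp 7 of the 9 passed the test, 5 of them at least 4-fold lower. LHCB1.4 (AT2G34430) read 11.72 and 9.98 in the meristem and 18.39 and 18.12 in the leaf. Both meristem values were far below both leaf values, and the meristem replicates stood 1.74 apart. Its difference of -7.41 (SE 0.62, 95% interval -9.08 to -5.74, adjusted p = 0.00174) was the 6th lowest of the 18554 loci well above background on all arrays. Without meristem replicate 1 it was -8.28 and without meristem replicate 2 it was -6.53.

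LHCB1.5 (AT2G34420), the neighbouring gene with no protein-coding gene between, moved far less. Its probe read 16.68 and 16.54 in the meristem and 18.54 and 18.17 in the leaf, so the tissues did not overlap but differed by only -1.75 (SE 0.18, adjusted p = 0.00284). The difference of LHCB1.4 exceeded that of LHCB1.5 in size by 5.66, and by between 4.81 and 6.51 when single arrays were combined. The other tandem group held LHCB1.2, LHCB1.1 and LHCB1.3 on chromosome 1, adjacent in that order. LHCB1.1 (AT1G29920) differed by -4.14 (SE 0.28), LHCB1.2 (AT1G29910) by -2.28 (SE 0.14) and LHCB1.3 (AT1G29930) by -1.47 (SE 0.21). All 3 passed the test, and LHCB1.3 was under 4-fold. LHCB1.2 also fell under 4-fold with quantile normalization (-0.57), without scaling (-1.87) and with spike-in scaling (-1.52). LHCB1 and LHCB2 genes are near-identical copies, and how far their probes distinguish them was not tested, so that the values belong to probes rather than with certainty to single genes.

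The 3 LHCB2 genes were more alike. LHCB2.3 (AT3G27690) read 10.73 and 10.18 in the meristem and 15.76 and 15.59 in the leaf, giving a difference of -5.22 (SE 0.23, adjusted p = 0.000583). LHCB2.1 (AT2G05100) read 5.55 and 4.59 against 9.30 and 9.15, a difference of -4.15 (SE 0.35, adjusted p = 0.00182). Meristem values were below leaf values in each, without overlap. LHCB2.2 (AT2G05070), adjacent to LHCB2.1, differed by -4.17 (SE 0.57, adjusted p = 0.00616), with meristem replicates at 6.27 and 4.66; without meristem replicate 1 it was -4.98 and without meristem replicate 2 it was -3.36. The calls of LHCB2.1 (adjusted p = 0.102) and LHCB2.2 (adjusted p = 0.0965) were lost with normexp background correction. LHCB3 (AT5G54270) differed by -3.12 (SE 0.12, adjusted p = 0.000541).

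The minor LHCII proteins are single units that link the trimers to the core. The list of roles placed 4 genes here and set LHCB4.3, the third LHCB4 gene, at -0.87, with the rare antenna genes. The 4 genes lay between -3.25 and -2.45. All 4 were at least 4-fold lower in the meristem, with a median of -2.82, but under quantile normalization only LHCB4.2 was, at -2.53, with LHCB5 at -1.29, LHCB6 at -1.89 and LHCB4.1 at -1.91. LHCB4.1 (AT5G01530) read 14.04 and 13.90 in the meristem and 16.62 and 16.41 in the leaf, giving a difference of -2.55 (SE 0.14, adjusted p = 0.000836). LHCB5 (AT4G10340) read 15.45 and 15.31 against 17.89 and 17.79, a difference of -2.45 (SE 0.13, adjusted p = 0.000767). The replicates of both genes lay within 0.21 of each other, and the tissues did not overlap. LHCB4.2 differed by -3.25 and LHCB6 by -3.09.

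The LHCI genes, for the belt of antenna on one side of photosystem I, fell in the same range as the minor LHCII genes without LHCB4.3. All 4 were at least 4-fold lower in the meristem, between -3.24 for LHCA2 and -2.47 for LHCA4. Under quantile normalization only LHCA2 was, at -2.52, with LHCA1 at -1.58, LHCA3 at -1.60 and LHCA4 at -1.38. LHCA1 (AT3G54890) read 15.80 and 15.45 in the meristem and 18.69 and 18.36 in the leaf, giving a difference of -2.90 (SE 0.20, adjusted p = 0.00119). LHCA3 (AT1G61520) read 15.15 on both meristem arrays and 18.07 and 17.78 in the leaf, giving a difference of -2.78 (SE 0.15, adjusted p = 0.000809). Neither gene overlapped between the tissues.

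**Figure D2:**
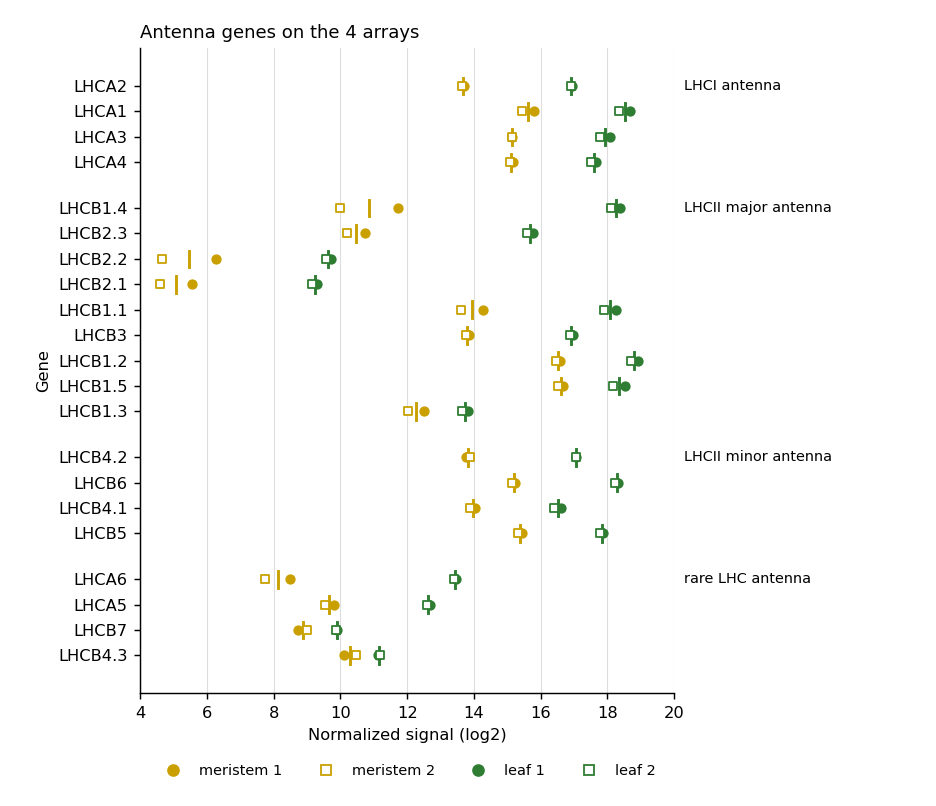
Scaled signal (log2) of each antenna gene on the 4 arrays, with symbols for the single arrays and a bar at each tissue mean. Meristem values lie left of leaf values in each of the 21 genes, LHCB1.4 shows the widest gap, and its meristem replicates at 11.72 and 9.98 stand apart; under quantile normalization LHCB1.5 is at 0.05.

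The 4 antenna genes that the list of roles set apart as rare split. LHCA6 (AT1G19150), which with LHCA5 joins photosystem I to the NADH dehydrogenase-like complex, read 8.50 and 7.73 in the meristem and 13.47 and 13.40 in the leaf. Its difference of -5.32 (SE 0.29, adjusted p = 0.000803) was the 45th lowest of the ranked loci, and LHCA5 followed at -2.97. By contrast LHCB7 (AT1G76570) read 8.73 and 9.00 against 9.89 and 9.88, a difference of only -1.02 (SE 0.15, adjusted p = 0.00705). Its call was lost with normexp (adjusted p = 0.0671), without scaling (0.172), with spike-in scaling (0.150) and in the methods' t-test after adjustment (0.0579). LHCB4.3 (AT2G40100), the third gene of the LHCB4 group, read 10.10 and 10.46 against 11.13 and 11.18, and its difference of -0.87 (SE 0.17, adjusted p = 0.0167) was the smallest of the antenna. The tissues did not overlap in either gene. LHCB4.2 had a difference 2.38 larger in size than LHCB4.3, and LHCB4.1 one 1.67 larger. LHCB4.3 lost its call without leaf replicate 1 or without leaf replicate 2.

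All 11 nuclear photosystem I subunit genes were at least 4-fold lower in the meristem, between -4.24 and -2.69, with a median of -3.53 (11.5-fold). PSAN (AT5G64040), a lumenal subunit where plastocyanin docks, had the largest difference at -4.24 (SE 0.24, adjusted p = 0.000815). PSAF (AT1G31330), which also binds plastocyanin, had the smallest. It read 15.55 and 15.42 in the meristem and 18.32 and 18.03 in the leaf, giving a difference of -2.69 (SE 0.16, adjusted p = 0.000881). Under quantile normalization it was -1.36, the only one of the 11 under 4-fold.

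On the stromal side, where ferredoxin is reduced, PSAD and PSAE are each encoded by a pair of genes. PSAD1 (AT4G02770) read 14.13 and 14.14 in the meristem and 17.49 and 17.31 in the leaf, giving a difference of -3.26 (SE 0.13, adjusted p = 0.000546), and PSAD2 differed by -4.05. The pair differed by 0.79, and by between 0.68 and 0.90 when single arrays were combined. PSAE1 at -3.80 was lowered further than PSAE2 at -2.82.

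PSAH and PSAL take part in docking LHCII to photosystem I. PSAH2 (AT1G52230) read 10.29 and 9.68 in the meristem and 14.08 and 13.96 in the leaf, giving a difference of -4.03 (SE 0.24, adjusted p = 0.000911), while PSAH1 differed by -3.24. PSAL differed by -3.70. PSAK and PSAG, at the edge of the complex, differed by -3.53 and -3.01. Meristem arrays were below leaf arrays in all of these genes.

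The extrinsic proteins of the oxygen-evolving complex shield the manganese cluster where water is split. The list of roles placed 7 genes with this complex, for the extrinsic proteins PSBO, PSBP and PSBQ and for PSBR. All 7 were lower in the meristem, 6 of them at least 4-fold, with a median of -3.11. Under quantile, spike-in or no scaling 4 reached 4-fold. PSBO1 (AT5G66570), the main isoform of the manganese-stabilising protein, read 15.07 and 15.31 in the meristem and 17.59 and 17.53 in the leaf, giving a difference of -2.37 (SE 0.14, adjusted p = 0.000924). PSBP1 (AT1G06680) read 14.61 and 14.40 against 17.72 and 17.50, a difference of -3.11 (SE 0.16, adjusted p = 0.000718). PSBQ2 (AT4G05180) read 12.94 and 12.86 against 16.61 and 16.52, a difference of -3.67 (SE 0.12, adjusted p = 0.000483). The replicates of these 3 genes were far closer to each other than to any array of the other tissue.

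Genes for the same protein gave unlike differences, and these were set only against the spread of the arrays. PSBO2 at -3.50 was lowered by 1.12 more than PSBO1, and by at least 0.95 with any combination of single arrays. PSBP2 (AT2G30790) differed by -1.57 (SE 0.16, adjusted p = 0.00276), 1.54 less in size than PSBP1, and its call was lost with normexp background correction (adjusted p = 0.0533). The differences of PSBQ1 and PSBQ2 lay 0.44 apart, the least of the pairs compared. PSBR differed by -2.13. Like PSBO1, it was under 4-fold with quantile normalization (-0.84), without scaling (-1.72) and with spike-in scaling (-1.37). The small subunits PSBTN, PSBW and PSBY differed by -3.39, -3.14 and -3.02.

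**Figure D3:**
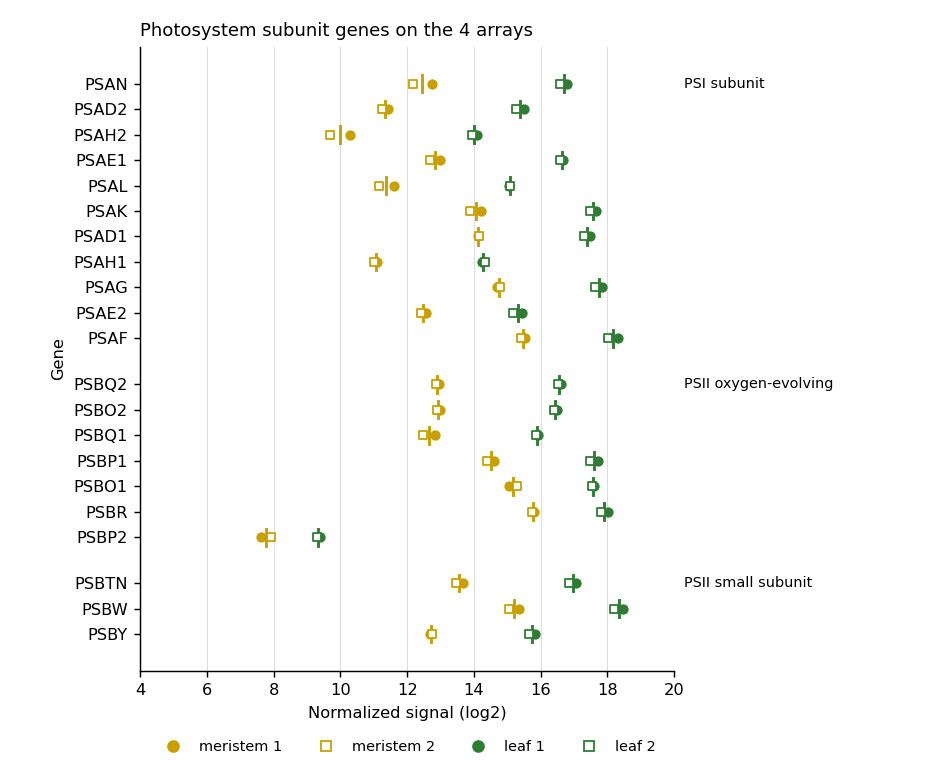
Scaled signal (log2) of each photosystem subunit gene on the 4 arrays, with symbols for the single arrays and a bar at each tissue mean. Meristem and leaf values are separated in all 21 genes; PSBP2 has the narrowest gap, at -1.57, and PSAN the widest, at -4.24.

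The light-harvesting-like genes encode relatives of the antenna that protect against excess light or help assembly. Of the 4 taken by the rule, 3 were lower in the meristem, against 21.6% of all loci, and ELIP2 was higher. PSBS (AT1G44575), which triggers the dissipation of excess light energy as heat, read 12.98 and 12.37 in the meristem and 16.08 and 15.84 in the leaf, giving a difference of -3.29 (SE 0.25, adjusted p = 0.00148). OHP2, a one-helix protein needed to assemble photosystem II, differed by -2.83, and its partner OHP1 (AT5G02120), which the description rule did not take, by -3.23 (SE 0.22, adjusted p = 0.00115). OHP1 read 9.79 and 9.30 in the meristem and 12.89 and 12.65 in the leaf. Meristem values were below leaf values in PSBS, OHP2 and OHP1. The 5 listed genes of this kind outside the rule were all lower, from -3.23 for OHP1 to -0.77 for SEP2.

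The 2 early light-induced proteins, which are made under high light, went in opposite directions at low signal. ELIP1 (AT3G22840) read 4.99 and 5.14 in the meristem and 6.48 and 6.24 in the leaf, giving a difference of -1.29 (SE 0.15, adjusted p = 0.00395). ELIP2 (AT4G14690) read 4.83 and 4.70 in the meristem and 0.91 and 2.54 in the leaf, where its probe was not well above background on either array. It was at least 3.23-fold higher in the meristem (fitted difference 3.04, adjusted p = 0.0150), the leaf being set on each array at the dimmest signal that still cleared the background. Its fitted difference was 2.23 without leaf replicate 1 and 3.86 without leaf replicate 2, and the methods' t-test did not pass it. With normexp background correction neither gene passed the test, at -0.54 (adjusted p = 0.757) for ELIP1 and 0.10 (adjusted p = 0.963) for ELIP2.

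Among the proteins that assemble or repair photosystem II, HCF136 (AT5G23120), needed for an early step of assembly, read 10.46 and 10.64 in the meristem and 13.51 and 13.50 in the leaf. Its difference of -2.95 (SE 0.13, adjusted p = 0.000596) lay within the range of the subunits. PSB28 differed by -3.29, the largest of the 4, and LPA19, a relative of PSB27 that aids processing of a core protein, by -0.93 (SE 0.14, adjusted p = 0.00811), the smallest. LPA19 lost its call without leaf replicate 1 (adjusted p = 0.0509). The PSBP-like genes, a separate class in the list of roles, differed by -3.83 for PPL2, named PnsL1 in RefSeq, and by -2.65 for PPL1.

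The other matches of the description had the median closest to 0 of all classes, at -1.49 over 7 genes. PnsL3 (AT3G01440), a PsbQ-like subunit of the NADH dehydrogenase-like complex, had the largest difference of the class. It read 7.02 and 6.36 in the meristem and 11.52 and 11.39 in the leaf, giving a difference of -4.77 (SE 0.26, adjusted p = 0.000805) and the 70th lowest of the ranked loci. PPD1, a PsbP domain protein (-2.33), and AT1G51400, annotated as a small photosystem II protein, were also at least 4-fold lower. AT4G37230 read 5.09 and 4.94 against 5.58 and 5.29, a difference of -0.42 (SE 0.16, 95% interval -0.86 to 0.02, adjusted p = 0.0970), and AT5G28450, a putative chlorophyll A-B binding protein, differed by -0.82 (SE 0.18, adjusted p = 0.0215). Both were close to background, and AT5G28450 was well above it on only 1 of the meristem arrays and lost its call without meristem replicate 2 or without leaf replicate 2.

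The remaining genes of the light reactions were taken from a list of roles and lie outside the description rule. Of 42 such genes, 38 were lower in the meristem and 4 higher, against 21.6% and 27.1% of all loci. At least 4-fold lower were 23, against 6.42% of all loci, and the median was -2.18. The 11 genes of leaf-type electron transport were all lower, between -4.42 for LFNR2, a ferredoxin-NADP reductase, and -1.22 for PGRL1B, which takes part in cyclic electron flow. LFNR2 (AT1G20020) read 11.43 and 11.01 in the meristem and 15.71 and 15.57 in the leaf. The photosystem subunits PSAP and PSAO, whose descriptions the rule missed, differed by -3.82 and -3.32, and PSBX was also at least 4-fold lower. The 9 further assembly and repair genes were all lower, from -2.80 for VAR2, a protease of the FtsH family, to -1.45 for LPA1.

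With percentile scaling, the genes that deliver and modify the antenna were lowered less than the antenna itself at the median. The medians were -1.59 for insertion and -1.97 for the kinases and phosphatase, against -2.97 for the antenna. Under quantile normalization the antenna median was -1.91, and values of these genes under that setting are not given here. The 4 genes for inserting antenna proteins into the thylakoid were all lower, with differences between -1.90 for ALB3, the insertase, and -1.48 for CPFTSY, and none reached 4-fold. STN7, the kinase that phosphorylates LHCII, differed by -2.15, TAP38, the phosphatase that reverses this, by -1.97, and STN8, the kinase of core proteins, by -1.74. All 7 passed the test. The difference between these lists and the antenna was not tested.

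The 4 listed genes higher in the meristem were root-type or minor isoforms of proteins whose leaf forms were lower. Of all loci, 27.1% passed the test in that direction. FD3 (AT2G27510), the ferredoxin of non-green tissue, read 13.22 and 13.14 in the meristem and 11.85 and 11.69 in the leaf, giving a difference of 1.41 (SE 0.13, adjusted p = 0.00226). The root-type reductases RFNR1 and RFNR2 differed by 1.13 (adjusted p = 0.00310) and 0.76 (adjusted p = 0.00907). ATPC2, a second gene for the gamma subunit of the chloroplast ATP synthase, differed by 0.56 (adjusted p = 0.0249), while ATPC1 differed by -3.01 (adjusted p = 0.000739). Both meristem arrays lay above both leaf arrays in the first 4 of these genes and below them in ATPC1.

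**Figure D4:**
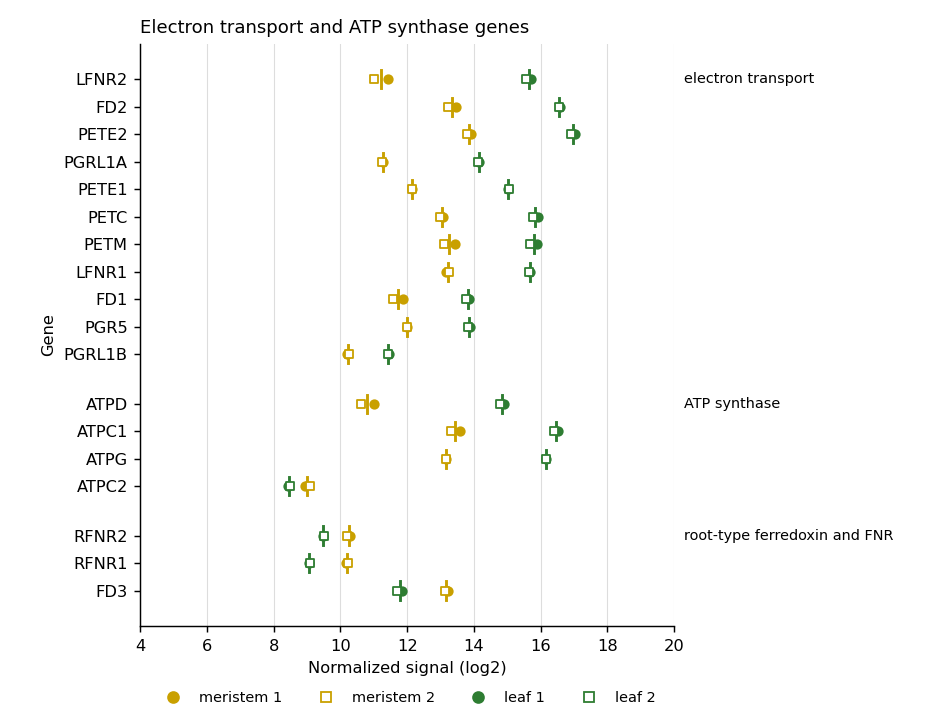
Scaled signal (log2) on the 4 arrays of the electron transport and ATP synthase genes, leaf-type beside root-type, with a bar at each tissue mean. The leaf-type genes lie lower in the meristem, from LFNR2 at -4.42 to PGRL1B at -1.22, and FD3, RFNR1, RFNR2 and ATPC2 lie higher.

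Genes with larger differences between the tissues tended to have a higher signal in meristem replicate 1 than in meristem replicate 2. The order was not strict, since the gap was 0.18 in PSAD2, at -4.05, and 0.61 in PSBS, at -3.29. Of the 10 genes at -4 or below, all 10 had the higher signal in meristem replicate 1, by a median of 0.66 and by up to 1.74 in LHCB1.4. Of the 20 genes between -4 and -3, 16 were higher in meristem replicate 1, by a median of 0.15, and of the 11 genes above -2, 4 were, with a median of -0.13. Across the 57 genes well above background on all arrays, Spearman's rho between the difference and the gap of the meristem replicates was -0.67, against -0.11 across the 18554 such loci; the gap of the leaf replicates gave -0.06. These values describe genes of the same 4 arrays, which are not independent, and both axes hold the same meristem signals. All 6 leaf markers were also higher in meristem replicate 1, by 0.19 to 0.83, and 5 of the 6 meristem markers were higher in meristem replicate 2, with a median of -0.37. The part of leaf tissue in the meristem values of these genes was not tested. Between the mean signal of these genes and the difference, rho was -0.03.

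**Figure D5:**
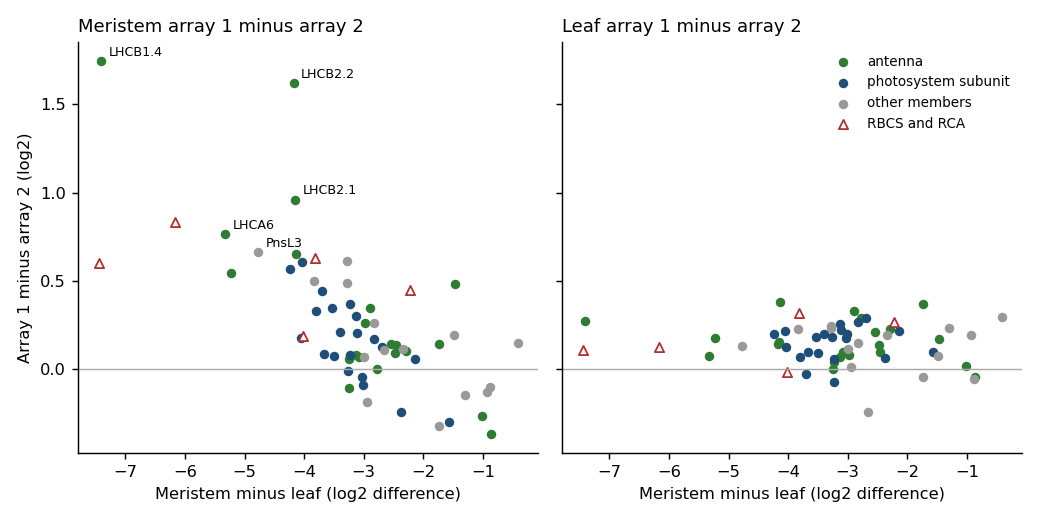
Gap between the 2 meristem arrays (log2, array 1 minus array 2) against the difference between meristem and leaf (log2) for each of the genes well above background on all 4 arrays (left), and the same for the leaf replicates (right), coloured by class, with triangles for the Rubisco small subunit and RCA. In the left panel, genes at -4 or below all lie above 0, with LHCB1.4 at 1.74, while genes above -2 scatter on both sides.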

How the data were processed

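RNA from 2 meristem and 2 leaf samples was labelled with Cy3 and hybridised to Agilent arrays. The authors deposited, per array, the intensity of each spot from Feature Extraction 9.5.3.1, of which the processed signal (background subtracted, dim spots replaced by a surrogate, 24.1% to 26.4% of probes) was used; it is not scaled between arrays. The processed signal was put on a log2 scale and each array was set to a common 75th percentile (874, 978, 606 and 794 before scaling). Of several probes, the brightest stood for a locus, and 57 of the genes had 1 probe. A locus was tested if, in either tissue, both arrays had a background-subtracted signal greater than 0. Tissues were compared with limma 3.58.1 (R 4.3.3, data.table version 1.17.8) without a block, with Benjamini-Hochberg adjustment over 23254 loci. The adjusted p for a call was at most 0.05; for at least 4-fold, a log2 difference of 2 or more and a signal on both arrays of the tissue with more of it were also needed. The number of arrays limits the precision. The methods' test was a t-test on the same values.

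Members, role lists and tests were chosen with earlier results of these data known. Named were the antenna, light-harvesting-like and photosystem subunit genes, the extremes of other classes, and any gene called higher or with only a bound. All 59 loci matched the RefSeq genes of TAIR10.1, and 106 of the 107 loci with a listed role were on the array. Alternatives were normexp (offset 50), quantile, median and no scaling, filters, mean of probes, a replicate block and single arrays left out; spike-in scaling and leaving out LHCB1 and LHCB2 were chosen after seeing the data. Probe sequences, promoters and genome positions were not used here. Figures used Python 3.11.15, matplotlib 3.10.9 and pandas 2.3.3.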

Additional observations from a re-analysis of the deposited data

How the results depend on the processing

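Between 47 and 58 genes were lower in the meristem under every setting tried. ELIP2 was the only gene higher, and there was none with normexp, the methods' t-test or that test after Benjamini-Hochberg adjustment (0 each). The antenna median of -2.97 became -2.73 with normexp, -1.91 with quantile normalization, -3.27 with median scaling, -2.56 without scaling, -2.20 with spike-in scaling, -3.07 with the mean of probes and -2.90 without LHCB1 and LHCB2, and ran from -3.10 to -2.84 with single arrays left out. The subunit median of -3.24 became -2.62 with quantile normalization, -3.53 with median scaling, -2.82 without scaling and -2.47 with spike-in scaling. Scaling moved all loci too, with a median of -0.20 to 0.86. Those scalings shift every locus alike; relative to the median of all loci, antenna and subunits were at -3.07 and -3.33 with percentile scaling, -1.99 and -2.70 with quantile normalization and -2.66 and -3.10 with normexp. At least 4-fold lower were 46 genes, 44 with normexp, 35 with quantile normalization, 42 without scaling and 37 with spike-in scaling. LHCB1.5 was at 0.0501 under quantile normalization and AT4G37230 at 0.35 under spike-in scaling. At least 4-fold lower were 1492 of all loci and 1524 higher, against 655 and 252 with normexp, 1954 and 1187 with median scaling, 1031 and 2211 without scaling and 758 and 3003 with spike-in scaling. Normexp lost 11 calls, among them LHCB7 and LHCB4.3, and LHCB7, LHCB4.3, LPA19, AT3G57680 and AT5G28450 were also lost without scaling and with spike-in scaling. The cause was not tested. Same-numbered arrays deviated together only weakly (r = 0.09 over all loci), so numbers were not taken as pairs; with a replicate block 57 and 46 genes were lower and at least 4-fold lower, as without. Groups of 2 arrays limit the precision of single genes, and dim probes such as ELIP2 are limited by background.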
